A study of Homo sapiens with 14 samples.

Results

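Dexamethasone (Dex), a synthetic glucocorticoid, was given to A549 cells together with MS023, an inhibitor of the type I arginine methyltransferases, and nascent transcription was measured 15 min later. The comparison set the 2 libraries labelled as MS023 with Dex against the 2 libraries labelled as MS023 alone, both at 15 min, so it used 4 of the 14 libraries of the series, chosen by their labels. A549 is an established human lung adenocarcinoma line that carries the glucocorticoid receptor. Precision run-on sequencing (PRO-seq) lets engaged RNA polymerases extend their transcripts with labelled nucleotides in permeabilized cells and sequences the RNA so labelled, so it reads polymerase activity rather than the amount of finished mRNA. The series asked how PRMT inhibition changes nascent transcription, with and without a glucocorticoid.

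Both groups received MS023 at 1 µM in a final 0.01% DMSO for 15 min, and 1 of them also received Dex at 100 nM over the same time. Both were cultures of the same unmodified line, 2 libraries each, and MS023 was present in the reference as well. The difference is therefore the response to Dex in cells that were also exposed to MS023. Dex without an inhibitor was not analysed here. For context, values are also given for 2 untreated libraries (0.01% DMSO), for 2 libraries of cells given 1 µM GSK591, a PRMT5 inhibitor, and for 2 libraries given GSK591 with 100 nM Dex, all at 15 min. The labels do not say that the libraries of a group came from separate cultures, so p-values measure the spread between these samples, which may be technical.

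Glucocorticoids cross the plasma membrane and bind the glucocorticoid receptor, which is held in the cytoplasm by heat shock protein chaperones. The bound receptor enters the nucleus, where it binds DNA at glucocorticoid response elements, mostly in distal enhancers, and also acts on genes driven by AP-1 and NF-kappa-B. In lung epithelium the response is known for feedback inhibitors of inflammatory and growth factor signalling, for the clock gene PER1 and for genes of fuel use and sodium transport. Arginine methyltransferases modify histones and coactivators of nuclear receptors, among other proteins.

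Promoter sequences are shown for PER1, TSC22D3 and IRS2, 3 of the clearest rises in the data. TSC22D3 and IRS2 were picked because their windows hold a match to a loose core of the receptor's DNA motif. The 3 windows are therefore not a sample of the genes that rose. They come from RefSeq (GRCh38.p14) and run from 250 bases before the annotated start to 50 bases after it, 5′ to 3′ on the strand of the gene. Capitals mark matches to ACANNNTGT, a loose core of the receptor's motif; matches to TGANTCA, the AP-1 motif, would be marked in the same way, and these 3 windows hold none.
PER1 (chr17:8152355-8152654, minus strand): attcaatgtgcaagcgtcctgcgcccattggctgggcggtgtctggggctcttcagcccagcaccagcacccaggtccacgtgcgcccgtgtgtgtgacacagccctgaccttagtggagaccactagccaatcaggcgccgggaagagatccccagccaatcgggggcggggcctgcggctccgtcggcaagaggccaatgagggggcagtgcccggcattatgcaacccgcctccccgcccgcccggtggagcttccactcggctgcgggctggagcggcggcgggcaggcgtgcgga
TSC22D3 (chrX:107775939-107776238, minus strand): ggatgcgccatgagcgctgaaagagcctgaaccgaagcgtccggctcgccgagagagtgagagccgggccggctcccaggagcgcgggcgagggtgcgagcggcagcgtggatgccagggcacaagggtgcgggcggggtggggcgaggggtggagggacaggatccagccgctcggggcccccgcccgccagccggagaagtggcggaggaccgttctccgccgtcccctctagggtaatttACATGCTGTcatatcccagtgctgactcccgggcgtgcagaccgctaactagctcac
IRS2 (chr13:109786534-109786833, minus strand): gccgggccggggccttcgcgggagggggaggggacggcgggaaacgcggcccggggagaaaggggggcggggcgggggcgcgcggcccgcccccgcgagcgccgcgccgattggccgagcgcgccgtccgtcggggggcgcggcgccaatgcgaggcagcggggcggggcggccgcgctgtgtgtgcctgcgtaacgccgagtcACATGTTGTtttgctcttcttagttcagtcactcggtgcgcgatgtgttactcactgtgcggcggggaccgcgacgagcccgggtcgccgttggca

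Only 1 RefSeq start per gene was read, on both strands. ACANNNTGT began 7 bases before this start in TSC22D3 and 46 bases before it in IRS2, and was not found in the PER1 window. It was found in 5.45% of 27305 RefSeq promoters of this length and in 2.76% of the 12757 promoters matched to tested genes. Among 913 matched genes that rose with Dex the share was 3.07%, and among 462 that fell it was 3.03%. Of 31 matched promoters of genes listed below as glucocorticoid induced, 2 held it, those of TSC22D3 and IRS2. The full glucocorticoid response element, AGAACA and TGTTCT separated by 3 bases, contains ACANNNTGT and was found in 1 of the 27305 promoters and in none of the 12757. The AP-1 motif TGANTCA was found in 4.84% of the matched promoters of tested genes, in 3.83% of those that rose and in 5.19% of those that fell. These are matches of letters in a short window, and other starts of the same genes and distal enhancers were not read. Whether the start read for a gene is the one used in these cells was not tested.

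Counts per gene were compared with edgeR's quasi-likelihood test in 1 fit of all 14 libraries, and a gene was called when its Benjamini-Hochberg adjusted p was under 0.05. Levels are given as counts per 1000000 counts on TMM-scaled library sizes (CPM), which compare libraries for 1 gene and not genes with each other. Total counts were 8904573 and 5768312 in the MS023 libraries and 8756911 and 9155899 in the libraries with Dex, within 5768312 to 9606938 over all 14. Transcripts of the mitochondrial genome took 44.5% and 39.8% of counts with MS023 alone, 49.6% and 52.9% with Dex added, and 39.8% to 58.0% over all 14. Replicates of both groups differed by more than counting error, with chi-square statistics of 4.27 (MS023) and 5.72 (MS023 with Dex) times their degrees of freedom. All 7 epithelial markers and all 8 aldo-keto reductase and NRF2 markers of A549 were above the count filter. Their summed levels were 881 to 911 CPM and 1001 to 1103 CPM with MS023, and 1067 to 1109 CPM and 1170 to 1255 CPM with Dex. Of the markers of other cells, no endothelial gene, 2 of 5 leukocyte genes and 1 of 4 fibroblast genes passed the filter, with sums under 8 CPM, and 3 of 6 lung surfactant and airway genes did, at 18.2 to 22.1 CPM in sum.

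Dex added to MS023 changed 1966 of the 21910 genes tested (8.97%), of which 1293 rose (5.9%) and 673 fell (3.07%). The rises were the larger changes: 351 of them (27.1%) exceeded 2-fold, with a median size of 0.70 on the log2 scale, and 63 of the falls (9.36%) did, with a median size of 0.54. Of the genes that rose 1079 were protein coding, as were 513 of those that fell. The 2 groups did not overlap at 99.9% of the genes called in each direction, but also at 49.4% of all genes tested. Absence of overlap at a called gene therefore adds little to its call. With library size as the only scaling, the split turned to 533 higher and 1317 lower, and the median of all genes moved from -0.02 to -0.19. With the library size of non-mitochondrial counts alone it was 1562 higher and 364 lower. No spike-in was used here, so the changes are relative to the bulk of genes, and in these bulk libraries fewer transcribing cells and fewer engaged polymerases per cell cannot be told apart. Without replicate 1 of MS023 the test called 641 genes, without either replicate of MS023 with Dex it called 1254 (replicate 1 left out) or 929 (replicate 2), and DESeq2 called 1096.

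**Figure D1:**
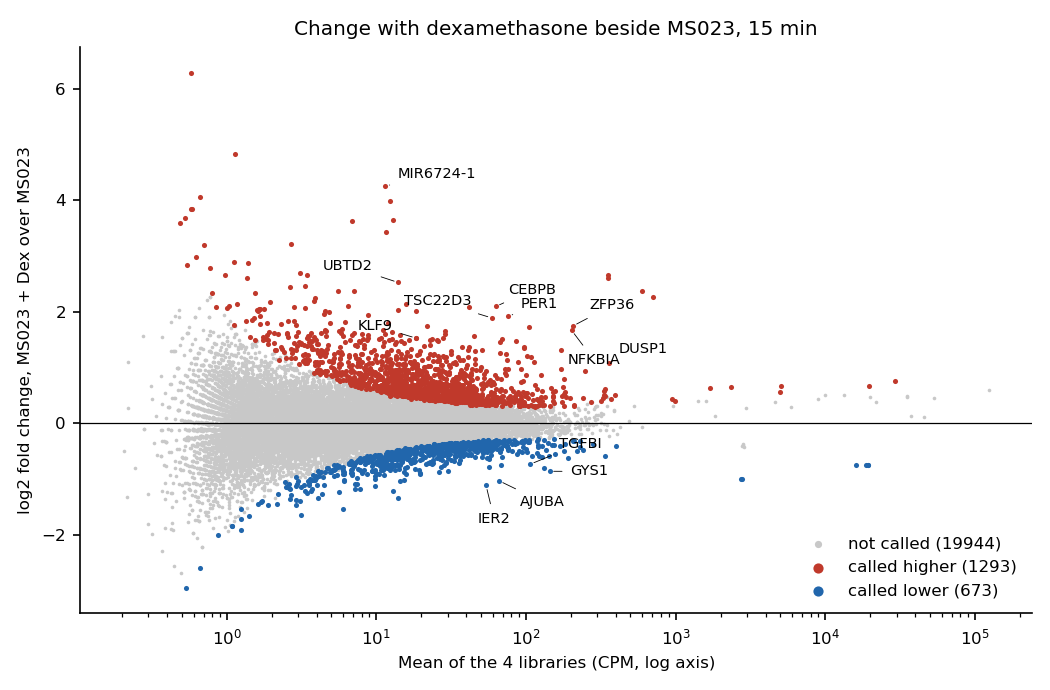
Each point is a gene, with the mean CPM of the 4 libraries on a log axis and the log2 fold change of MS023 with Dex over MS023 on the other axis. The 1293 genes called higher and the 673 called lower are coloured; the highest rises lie above the falls in size, and the named glucocorticoid genes lie at intermediate to high levels.

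PER1, a repressor of the circadian clock (chr17:8140472-8156506 on hg38, minus strand), is the first of the textbook glucocorticoid genes. PER1 stood at 25.6 and 39.2 CPM with MS023 and at 112 and 128 CPM with Dex, against 26.9 and 29 CPM in untreated cells. Both libraries with Dex lay above all the others, a rise of 3.77-fold (log2 fold change 1.91 ± 0.12 SE, edgeR adjusted p 1.03e-14). TSC22D3, which encodes the anti-inflammatory protein GILZ (chrX:107713221-107777342, minus strand), stood at 24.3 and 26.1 CPM with MS023 and at 87.4 and 98.5 CPM with Dex. The untreated libraries, at 23.6 and 26.3 CPM, lay with the MS023 libraries, and the rise was 3.7-fold (1.89 ± 0.11 SE, edgeR adjusted p 1.41e-15).

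ZFP36, an RNA-binding protein that speeds the decay of cytokine mRNAs (chr19:39406813-39409412, plus strand), stood at 93.5 and 96.4 CPM with MS023 and at 302.5 and 332.4 CPM with Dex. IRS2, an adaptor of the insulin receptor (chr13:109752698-109786568, minus strand), stood at 47.8 and 49.5 CPM and at 148 and 172 CPM. In neither gene did the groups overlap, and replicates lay close beside the size of the change, with log2 fold changes of 1.74 ± 0.10 SE for ZFP36 (edgeR adjusted p 3.82e-16) and 1.72 ± 0.10 SE for IRS2 (adjusted p 1.41e-15). NFKBIA, the inhibitor that holds NF-kappa-B in the cytoplasm (chr14:35401511-35404749, minus strand), stood at 90.0 and 104 CPM with MS023 and at 299.6 and 314.5 CPM with Dex. That was a rise of 3.17-fold (1.66 ± 0.10 SE, edgeR adjusted p 3.16e-15), also without overlap.

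Of the 40 genes listed as glucocorticoid induced, 37 were tested, 25 rose, 1 fell and 11 were not called, with a median log2 fold change of 0.97 against -0.02 for all genes. The lowest of the risers were SCNN1A (0.36), a sodium channel subunit not called by DESeq2 or without replicate 1 of MS023, and SGK1 (0.51), a kinase that keeps that channel at the membrane. HEXIM1, an inhibitor of the elongation factor P-TEFb, was the member that fell, by 0.40 on the log2 scale, from 188 and 194 CPM to 143 and 145 CPM, and its call was lost when any 1 of the 4 libraries was left out. CIDEC, a lipid droplet protein, had the highest fold change of the list (2.17) at the low levels of 0.541 and 0.901 CPM with MS023 and 3.15 and 3.20 CPM with Dex. GLUL (0.29), RGS2 (0.20) and CDKN1C (0.16) were among the members that did not pass. Without replicate 1 of MS023, 18 members rose and none was called lower.

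FKBP5, a co-chaperone that lowers the receptor's affinity for hormone (chr6:35573585-35728583, minus strand), stood at 5.30 and 7.81 CPM with MS023 and at 12.0 and 15.4 CPM with Dex. The groups did not overlap and the rise was 2.14-fold (1.10 ± 0.21 SE, edgeR adjusted p 0.000323), but without replicate 1 of MS023 it was 0.81 with an adjusted p of 0.0824. DUSP1, a phosphatase that switches off MAP kinases, rose by 1.07 ± 0.11 SE from 244 and 216 CPM to 448 and 521 CPM (edgeR adjusted p 1.74e-09). PDK4, which inhibits pyruvate dehydrogenase, rose from 11.5 and 11.1 CPM to 22.4 and 26.7 CPM (1.12 ± 0.15 SE, edgeR adjusted p 1.37e-06). ANGPTL4, an inhibitor of lipoprotein lipase, and the metallothionein MT2A rose by 1.52 and 1.37. In these genes, as in those above, MS023 alone was not called against untreated cells; in that comparison 40 genes were called in all (0.183% of genes tested; 2 to 22 with any 1 of its 4 libraries left out). PER1, TSC22D3, IRS2 and HEXIM1 share exon positions with another annotated gene and are uncertain to that extent, while ZFP36, NFKBIA, FKBP5, DUSP1 and PDK4 do not.

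**Figure D2:**
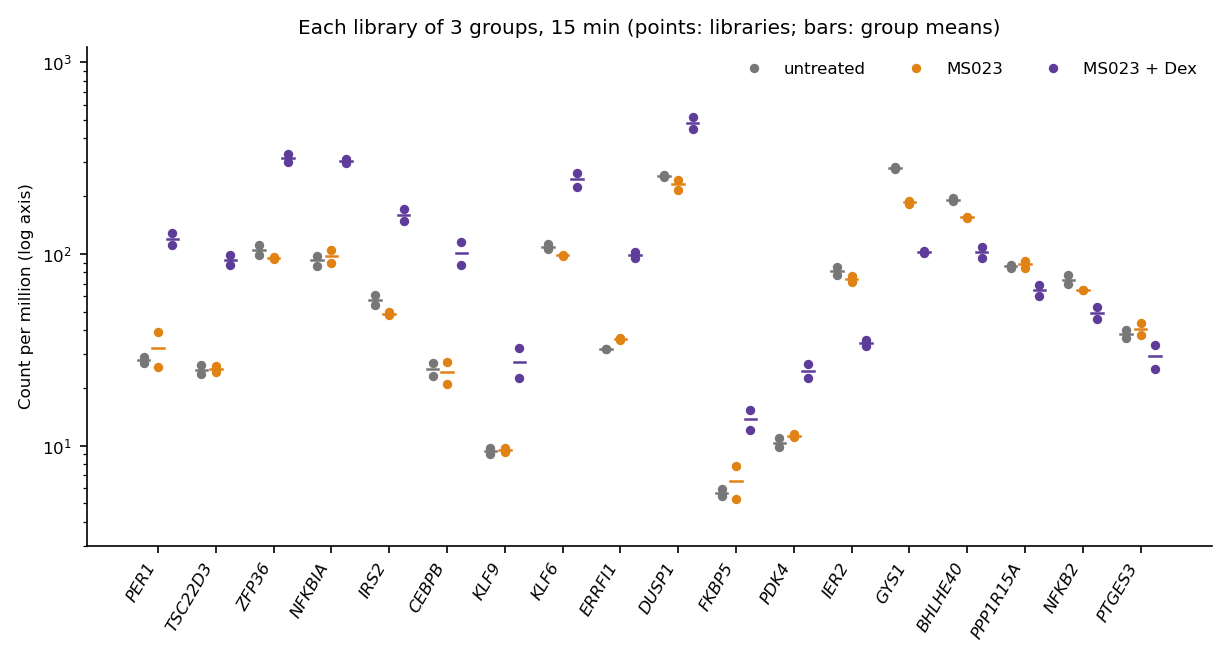
CPM on a log axis in each library of untreated cells, MS023 and MS023 with Dex at 15 min for 18 named genes; points are libraries and bars are group means. From PER1 to PDK4 both libraries with Dex lie above the MS023 and untreated libraries, and from IER2 to PTGES3 they lie below them; GYS1 is also lower with MS023 alone.

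Of 26 genes for the receptor, its chaperones and its coregulators, 2 rose and 1 fell, with a median of 0.03. The share called, 11.5%, was near the 8.97% of all genes tested. NR3C1, the receptor gene (chr5:143277931-143435512, minus strand), stood at 57.6 and 72.1 CPM with MS023 and at 71.7 and 72.5 CPM with Dex, and was not called (0.16 ± 0.11 SE, edgeR adjusted p 0.426). PTGES3, the p23 co-chaperone, fell from 43.7 and 37.8 CPM to 25.2 and 33.3 CPM (-0.48 ± 0.12 SE, edgeR adjusted p 0.00649), a call lost without replicate 1 of either group. DNAJB1, a heat-inducible HSP40 chaperone, rose by 0.52 and the coactivator EP300 by 0.38. Neither was called when only library size was used for scaling, and EP300 was not called by DESeq2, with GC and length offsets, or without replicate 1 of MS023 or either replicate of MS023 with Dex.

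Among the transcription factors, 9 of 14 Kruppel-like factor genes rose and none fell, with a median of 0.52; none was lower at an unadjusted p under 0.05 or by DESeq2. KLF9, a repressor known as a receptor target, rose from 9.73 and 9.31 CPM to 22.4 and 32.4 CPM (1.52 ± 0.17 SE, edgeR adjusted p 2.95e-08). KLF6 rose from 97.2 and 99.2 CPM to 224 and 265 CPM (1.32 ± 0.10 SE, edgeR adjusted p 8.76e-13). KLF4 (1.23) and KLF2 (0.94) rose as well. With scaling by library size alone, or without replicate 1 of MS023, 5 of the 14 rose. The list's median GC content over the first 200 transcript bases was 76.5%, against 60.5% for all genes; calls by GC content are given below.

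Of 6 C/EBP genes, regulators of differentiation and acute-phase genes, 3 rose and 3 did not pass. CEBPB (chr20:50190734-50192689, plus strand, a single exon that overlaps the antisense gene CEBPB-AS1) stood at 21.1 and 27.2 CPM with MS023 and at 87.7 and 115 CPM with Dex. Its rise was 4.26-fold (2.09 ± 0.14 SE, edgeR adjusted p 3.13e-14). That was among the 10 largest rises of coding genes at 2 CPM or more whose groups did not overlap, a condition of that ranking. CEBPD rose by 1.47 ± 0.12 SE and CEBPA by 1.26 ± 0.14 SE. The 3 rises were called in every alternative fit that was run.

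In the clock list 3 of 22 genes rose and 1 fell, 18.2% called against 8.97% of all genes tested. Beside PER1, the repressors NR1D2 (1.79) and PER2 (0.57) rose, PER2 not with library size alone, without replicate 1 of MS023 or without replicate 2 of MS023 with Dex. BHLHE40, a repressor of clock-controlled genes (chr3:4979116-4985323, plus strand, sharing exon positions with BHLHE40-AS1), fell from 153 and 156 CPM to 109 and 95.1 CPM. This fall to 0.658 of the MS023 level was larger than the spread between replicates (-0.60 ± 0.10 SE, edgeR adjusted p 2.35e-05).

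Feedback inhibitors of signalling were next. Of 19 genes for MAP kinase phosphatases and feedback inhibitors of receptor kinases, 8 rose and none fell, with a median of 0.43; none was lower at an unadjusted p under 0.05 or by DESeq2. ERRFI1, which binds and inhibits the EGF receptor, rose from 35.7 and 36.5 CPM to 102 and 94.9 CPM (1.45 ± 0.11 SE, edgeR adjusted p 1.46e-12). LRIG1, which promotes the degradation of that receptor, rose by 1.21, and the MAP kinase phosphatase DUSP5 by 0.90. Of 9 genes for the EGF receptor family and its ligands, the ligands AREG (1.02) and NRG1 (0.38) rose and none fell (1 lower at an unadjusted p under 0.05, none by DESeq2). Neither rise was called without replicate 1 of MS023, nor was NRG1 without replicate 2 of either group.

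In the NF-kappa-B list 7 of 18 genes rose and 1 fell. NFKBIA and TNFAIP3 (1.11), a deubiquitinase that ends NF-kappa-B signalling, were the largest rises, and TNIP2, which acts with TNFAIP3, rose by 0.66. NFKB2, which encodes the p100 subunit, fell from 65 and 64.7 CPM to 52.8 and 46.0 CPM (-0.39 ± 0.11 SE, edgeR adjusted p 0.0131). Without replicate 1 of MS023, and also without replicate 2 of MS023 with Dex, 2 members were called higher and none lower. Without replicate 2 of MS023 the counts were 4 and none, with library size alone 2 and 2, and by DESeq2 3 and 1. Of 21 cytokine and mediator genes, the chemokines CXCL2 (1.2) and CCL20 (1.77) rose and none fell (2 lower at an unadjusted p under 0.05, none by DESeq2). That is 9.52% called, near the 8.97% of all genes tested. CCL20 stood at only 0.865 and 0.600 CPM with MS023 and at 2.57 and 2.63 CPM with Dex, and its call was lost when any 1 of the 4 libraries was left out, and with DESeq2.

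Immediate early genes moved both ways, with 8 of 24 higher and 4 lower. Without replicate 2 of MS023 with Dex 5 were higher and 2 lower, and with library size alone 5 and 5. BTG1, an antiproliferative gene, rose by 1.31 and RHOB, a small GTPase, by 0.79, beside ZFP36. IER2 (chr19:13150415-13154908, plus strand), a nuclear protein induced by serum, stood at 77.0 and 71.3 CPM with MS023 and at 33.0 and 35.4 CPM with Dex. It fell to 0.46 of its level with no overlap (-1.12 ± 0.10 SE, edgeR adjusted p 1.57e-10). PPP1R15A, a regulatory subunit of the eIF2-alpha phosphatase, fell by 0.45, a call lost without replicate 1 of either group. In the AP-1 list 4 of 14 rose, among them JUND (0.79), FOSL2 (0.55) and MAFF (0.51), and MAFG fell by 0.34; without replicate 1 of MS023, 2 rose and none fell, and without replicate 2 of MS023 with Dex, 3 and none.

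Of 19 genes for TGF-beta feedback and ID proteins, 5 rose and none fell (1 lower at an unadjusted p under 0.05, none by DESeq2). That is 26.3% called, against 8.97% of all genes tested. SMURF2 (1.48) and SMURF1 (0.67), ubiquitin ligases for TGF-beta receptors, and SMAD7 (0.61), their inhibitory partner, were among those that rose. In the sodium transport list 5 of 12 rose, including the sodium pump subunit ATP1B1 (0.82), and none fell, at an unadjusted p under 0.05 or by DESeq2 either; 3 rose without replicate 1 of MS023. SGK1 rose from 37.2 and 35.1 CPM to 45.6 and 57.4 CPM (0.51 ± 0.12 SE, edgeR adjusted p 0.00261); without replicate 2 of MS023 with Dex its change was 0.34 with an adjusted p of 0.194, and 2 members of the list were called.

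Glycogen genes held the largest fall of a gene above 100 CPM that was named by rule. GYS1, muscle-type glycogen synthase (chr19:48968125-48993310, minus strand), stood at 183 and 189 CPM with MS023 and at 101 and 103 CPM with Dex, against 279 and 285 CPM in untreated cells. The 3 groups did not overlap, with MS023 alone also called lower than untreated (-0.60, edgeR adjusted p 0.00081), and the further change with Dex was to 0.549 of the MS023 level. In its list of 21 genes, PDK4 and PYGL (0.50), liver glycogen phosphorylase, rose and GYS1 alone fell. That is 14.3% called, against 8.97% of all genes tested. PYGL was not called with GC and length offsets, by DESeq2, or without replicate 2 of MS023 or either replicate of MS023 with Dex.

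Other lists had rises and falls. Heat shock genes had 2 of 16 higher and 2 lower, 25% called against 8.97% of all genes tested. BAG3, a co-chaperone of selective autophagy, rose by 1.19, and HSPA1B and HSPA1A, near-identical HSP70 genes whose reads cannot be assigned with certainty, fell by 0.60 and 0.50, HSPA1A not without replicate 1 of MS023. Among 24 p53 targets 4 rose, including the cell cycle inhibitor CDKN1A (0.69), and 2 fell, including the kinase PLK2 (-0.39), also 25% called. With library size alone none of them rose and 3 fell, and with 1 library left out 2 to 4 were called in all; CDKN1A was not called without replicate 2 of MS023. Integrated stress response genes had 2 of 20 higher and 1 lower, pause control genes 1 of 19 higher and 2 lower, and cytosolic ribosomal protein genes 2 of 86 higher and 1 lower. Their shares called were 15.0%, 15.8% and 3.49%, against 8.97% of all genes tested. With 1 library left out these 3 lists had 1 to 2, 0 to 1 and 1 to 2 calls. None of 56 replication-dependent histone genes was called by edgeR or DESeq2, while at a p under 0.05 before adjustment 2 were higher and 3 lower.

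Genes for arginine methyltransferases and PRMT5 partners were listed too, and not only those for the enzymes that the inhibitors target. Of 12 arginine methyltransferase genes and PRMT5 partners, COPRS, a PRMT5 cofactor, rose by 1.02 (not called without replicate 1 of MS023), and PRMT9 fell by 0.91 (not called without replicate 2 of MS023 with Dex). That is 16.7% called, from 2 genes, against 8.97% of all genes tested. PRMT9 stood at 7.53 and 6.90 CPM in untreated cells, 10.5 and 12.3 CPM with MS023 and 6.54 and 5.48 CPM with Dex. PRMT1, the main type I enzyme, stood at 93.2 and 99.1 CPM with MS023 and at 94.3 and 95.8 CPM with Dex, groups that overlapped (-0.01 ± 0.09 SE, edgeR adjusted p 0.954).

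**Figure D3:**
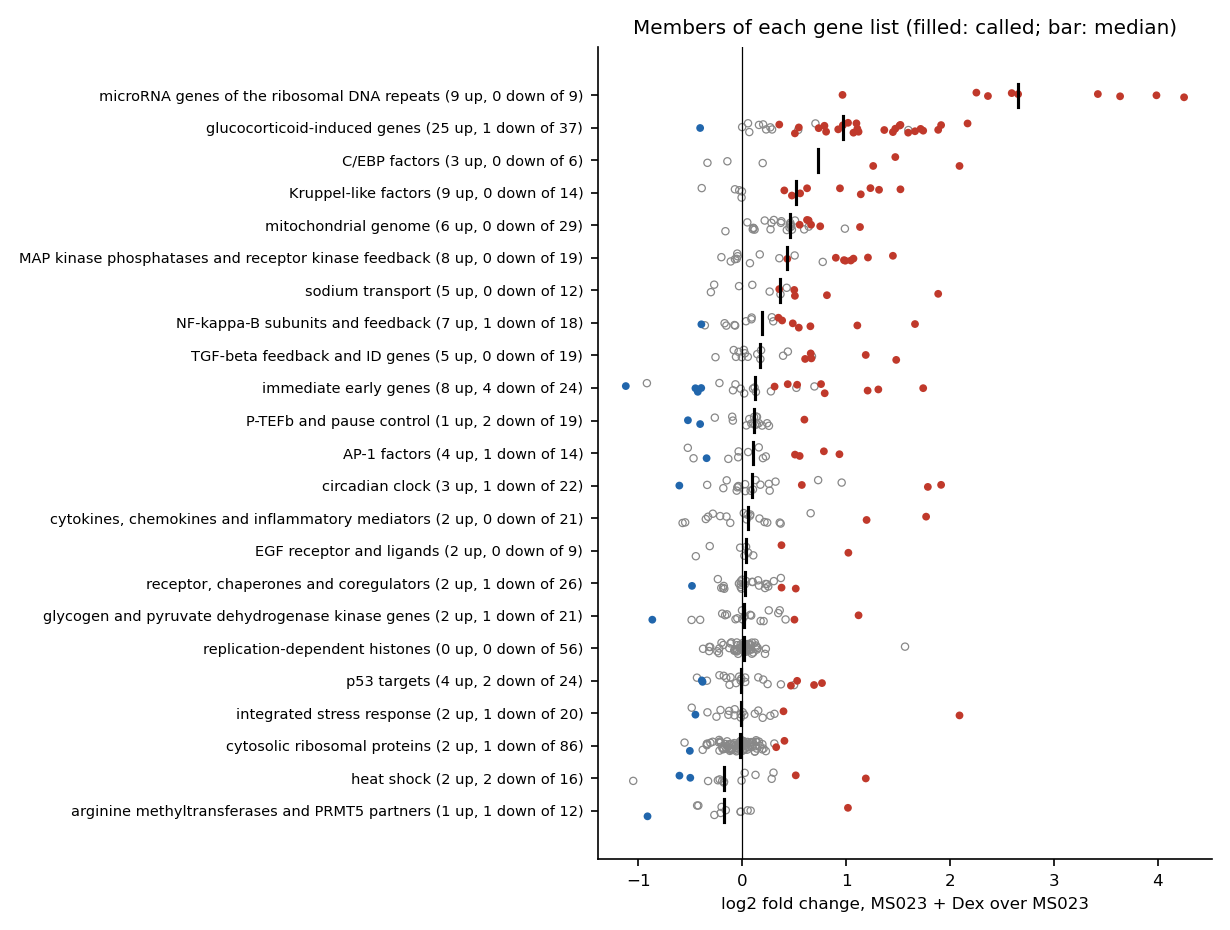
Log2 fold changes of MS023 with Dex over MS023 for the tested members of each list; filled points were called, open points were not, bars are medians, and the counts stand in the labels. The glucocorticoid-induced list has its median at 0.97 with 25 of 37 members higher, while most lists have medians near 0. Lists share some genes, and the microRNA list includes MIR663AHG of chromosome 20.

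The 10 largest rises among protein-coding genes at 2 CPM or more with no overlap of the groups ran from 4.02-fold to 5.75-fold. They were UBTD2, FGF18, TMEM117, STOX1, RMI2, CEBPB, TPBGL, CITED4, AVEN and PELI2, of which CEBPB alone was in a list. UBTD2, a ubiquitin-like domain protein (chr5:172209640-172284071, minus strand), stood at 4.32 and 3.90 CPM with MS023 and at 19.2 and 28.5 CPM with Dex (2.52 ± 0.27 SE, edgeR adjusted p 6.24e-09). CITED4, a coactivator that binds p300 (chr1:40861051-40862366, minus strand, single exon), stood at 12.6 and 19.7 CPM and at 60.3 and 73.1 CPM (2.08 ± 0.15 SE, edgeR adjusted p 1.49e-13). FGF18, a fibroblast growth factor, rose from 0.757 and 1.35 CPM to 6.19 and 5.02 CPM. All 10 kept their call in every alternative fit run.

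The 10 largest falls of coding genes were smaller, from 2.2-fold to 2.91-fold. CIROP, a leishmanolysin-like gene that overlaps C14orf119, fell from 9.08 and 8.71 CPM to 1.87 and 4.22 CPM (-1.54 ± 0.26 SE, edgeR adjusted p 6.53e-05). PSME2, an interferon-inducible proteasome activator subunit (chr14:24143362-24147570, minus strand, overlapping RNF31), stood at 20.8 and 19.5 CPM with MS023 and at 8.30 and 7.54 CPM with Dex. That fall was larger than the spread between replicates (-1.35 ± 0.16 SE, edgeR adjusted p 8.3e-08). PHB1, a mitochondrial prohibitin (-1.19), SPATA7 (-1.24) and CDK7 (-1.14), the kinase of TFIIH, were also among them, and CDK7 was not called without replicate 1 of MS023. The rest were DGCR6L, PDE4C, TMEM139, IL5 and TUBA4B. PDE4C and IL5 lost their calls when any 1 of the 4 libraries was left out. TMEM139 and TUBA4B did so without replicate 1 of MS023 or either replicate of MS023 with Dex. DGCR6L did so without replicate 2 of MS023 or replicate 1 of MS023 with Dex. DESeq2 called none of PDE4C, TMEM139, IL5 and TUBA4B. IL5 (edgeR adjusted p 0.0492) was also not called with non-mitochondrial library size, a replicate block, or GC and length offsets. IL5 stood at 1.94 and 1.31 CPM in untreated cells, 4.00 and 2.85 CPM with MS023 and 1.17 and 1.94 CPM with Dex. PDE4C stood at 1.51 and 1.64, 2.92 and 3.30, and 1.52 and 1.03 CPM. These 2 genes with Dex thus lay near the untreated libraries, while DGCR6L, TMEM139 and TUBA4B lay below them.

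At higher levels, 2 further falls were clear, in genes chosen after their values were seen. AJUBA, a LIM protein of the Hippo pathway (chr14:22971174-22982642, minus strand), stood at 95.6 and 82.1 CPM with MS023 and at 42.3 and 44.6 CPM with Dex (-1.04 ± 0.11 SE, edgeR adjusted p 4.07e-09). TGFBI, an extracellular matrix protein, stood at 129 and 138 CPM and at 81.0 and 78.7 CPM (-0.74 ± 0.09 SE, edgeR adjusted p 2.33e-07). The untreated libraries, at 84.3 and 91.9 CPM for AJUBA and at 130.3 and 133.7 CPM for TGFBI, lay with the MS023 libraries.

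The same dose of Dex was also given beside GSK591, in libraries that share none with the comparison described here. Of the 7 groups, GSK591 with Dex had replicates that differed most, with a chi-square statistic of 15.4 times its degrees of freedom. Mitochondrial transcripts took 48.2% and 58.0% of counts in these 2 libraries. Dex added to GSK591 changed 811 genes (3.7%), 313 higher (1.43%) and 498 lower (2.27%). Without replicate 1 of GSK591, replicate 2 of GSK591 or replicate 2 of GSK591 with Dex the number was 339, 364 or 354. Of the 1293 genes that rose beside MS023, 176 also rose beside GSK591, which is 13.6% of the first list and 56.2% of the second. Of the 673 that fell, 215 also fell there, 31.9% of the first list and 43.2% of the second. The sign was shared by 77.3% of the risers, with a median of 0.18 beside GSK591, and by 89.0% of the fallers, with a median of -0.33, where 49.5% of all genes lay above 0 beside GSK591. There were 3 risers that fell beside GSK591 and no faller that rose by edgeR (4 at an unadjusted p under 0.05 there). The difference between the Dex effects was called at 252 genes (1.15%), 234 with the higher value beside MS023 (1.07%) and 18 with the lower (0.0822%). Without replicate 1 of MS023 this number was 8, without replicate 1 of GSK591 31, without replicate 2 of GSK591 with Dex 105, without replicate 2 of MS023 with Dex 57, and without replicate 1 of GSK591 with Dex 490.

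The effect beside GSK591 was set beside that beside MS023 at single genes. PER1 changed by 1.91 beside MS023 and by 1.89 beside GSK591, a difference of 0.02 ± 0.18 SE. KLF9 changed by 1.52 and 1.57, BHLHE40 by -0.60 and -0.60, and TGFBI by -0.74 and -0.71. Other glucocorticoid genes had the higher value beside MS023: NFKBIA changed by 1.66 and 1.17 (difference 0.49 ± 0.14 SE, edgeR adjusted p 0.0895), ZFP36 by 1.74 and 1.35 (adjusted p 0.196) and DUSP1 by 1.07 and 0.77 (adjusted p 0.48). None of these differences was called, which does not show that the effects were equal. In the glucocorticoid-induced list 20 members rose beside GSK591, with a median of 0.79, and IRS2 and CEBPD were the members at which the difference was called. IRS2 rose by 1.72 beside MS023 and by 1.08 beside GSK591, a difference of 0.63 (edgeR adjusted p 0.017).

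Among the C/EBP genes the difference was called for all 3 risers. CEBPA rose by 1.26 beside MS023 and changed by 0.08 beside GSK591, a difference of 1.19 (edgeR adjusted p 0.00027). Its levels were 30.2 and 49.5 CPM with MS023, 88.0 and 99.6 CPM with MS023 and Dex, 87.7 and 74.5 CPM with GSK591, and 94.5 and 76.2 CPM with GSK591 and Dex. The libraries of GSK591 alone thus lay near those given Dex and above those of MS023 alone. UBTD2 stood at 13.1 and 6.56 CPM with GSK591, also above both MS023 libraries, and at 14.3 and 13.2 CPM with GSK591 and Dex.

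KLF15, a Kruppel-like factor chosen after its values were seen, was 1 of the 3 genes called in opposite directions (chr3:126342635-126357442, minus strand). It stood at 18.2 and 40.2 CPM with MS023 and at 55.7 and 68.7 CPM with MS023 and Dex, and at 87.25 and 57.5 CPM with GSK591 and at 49.8 and 42.2 CPM with GSK591 and Dex. Its change was 1.14 beside MS023 and -0.65 beside GSK591, a difference of 1.79 (edgeR adjusted p 0.000111). The level with GSK591 alone was the highest of the 4 groups by mean, and the untreated libraries stood at 26.4 and 30.7 CPM.

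**Figure D4:**
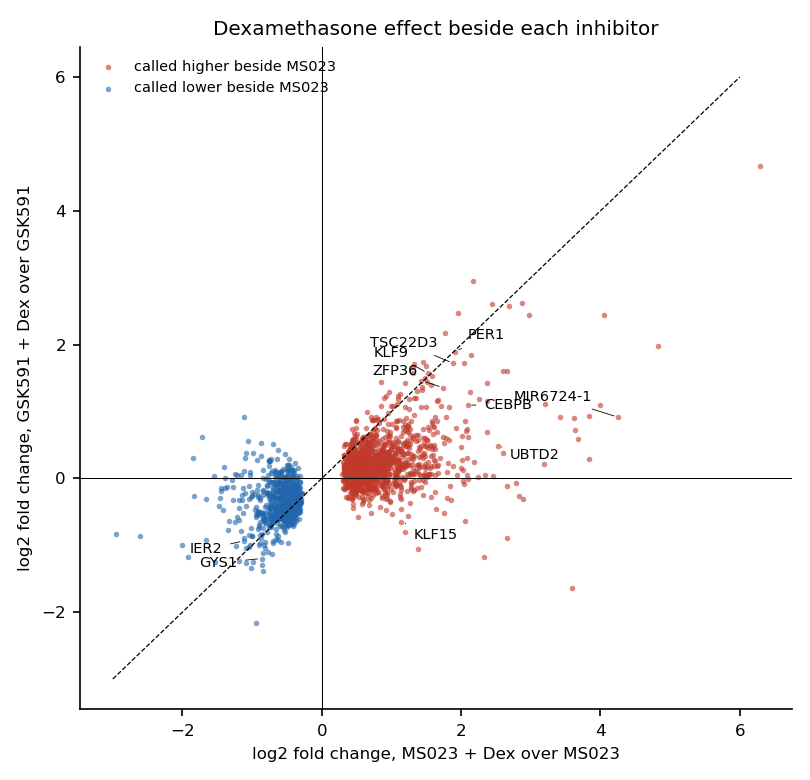
Each point is a gene called with Dex beside MS023, with its log2 fold change there on the horizontal axis and with Dex beside GSK591 on the vertical axis; the dashed line marks equal values. PER1, KLF9 and TSC22D3 lie near the line, while MIR6724-1, UBTD2 and CEBPB lie below it and KLF15 lies under 0 beside GSK591.

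The largest rises of all named genes were non-coding. MIR6724-1 (chr21:8205315-8205406, plus strand), 1 of 4 annotated copies of a microRNA gene in the ribosomal DNA repeats of chromosome 21, stood at 0.973 and 1.35 CPM with MS023 and at 17.6 and 26.0 CPM with Dex (4.25 ± 0.33 SE, edgeR adjusted p 1.42e-12). Its other copies rose by 3.42 to 3.99. RefSeq gives the mature sequence of this family, printed with the seed (bases 2 to 8) in capitals to show the product of the family with the highest fold changes. The coordinates are those of the RefSeq entry that lies within MIR6724-2, another copy than MIR6724-1.
hsa-miR-6724-5p (chr21:8249515-8249537, plus strand): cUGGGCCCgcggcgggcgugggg
Together with MIR3648 and MIR3687 copies of the same repeats and MIR663AHG of chromosome 20, 9 of 9 genes of this list rose, with a median of 2.66. With Dex beside GSK591, 8 of the 9 were called higher too, with a median of 1.16. MS023 alone was called against untreated cells at 3 of them, with a list median of 1.24. Replicates of MS023 could lie far apart, as in MIR3687-2 at 103 and 286 CPM. Reads of repeat copies cannot be assigned to 1 copy with certainty: RefSeq holds 2 entries for MIR6724 and their hairpins are identical. The reads measured polymerase activity over these loci, not mature microRNA. With GSK591 alone MIR6724-1 stood at 10.4 and 4.65 CPM.

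Transcripts of the mitochondrial genome rose at 6 of 29 genes (3 by DESeq2), or 20.7% against 5.9% of all genes tested, with a median of 0.46. They were low in the reference: MT-TA, the alanine tRNA, stood at 47.2 and 52.4 CPM in untreated cells, at 24.1 and 21 CPM with MS023 and at 37.6 and 62.0 CPM with Dex. The rise of MT-TA with Dex (1.13 ± 0.21 SE, edgeR adjusted p 0.000198) was not called without replicate 2 of MS023 with Dex, where 1 of the 29 was called; without replicate 2 of MS023, 2 were. With no count filter 17 were called.

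The response also moved with base composition. Genes with over 75% GC in the first 200 transcript bases rose in 20.3% of 2072 cases and fell in 0.917%, with a median of 0.18 (log2), while genes with 55% to 65% GC rose in 3.67% and fell in 4.38%. Genes that rose had a median of 70.5% GC and those that fell 62.0%. With GC content and exon length fitted as offsets, the class over 75% had 11.7% higher and 7.29% lower and a median of -0.01. The whole comparison had 1112 genes higher and 706 lower with these offsets, of which 1537 were called in the first fit too. The glucocorticoid-induced list then had 26 members higher and 1 lower. The part of base composition in the other rises was not tested.

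**Figure D5:**
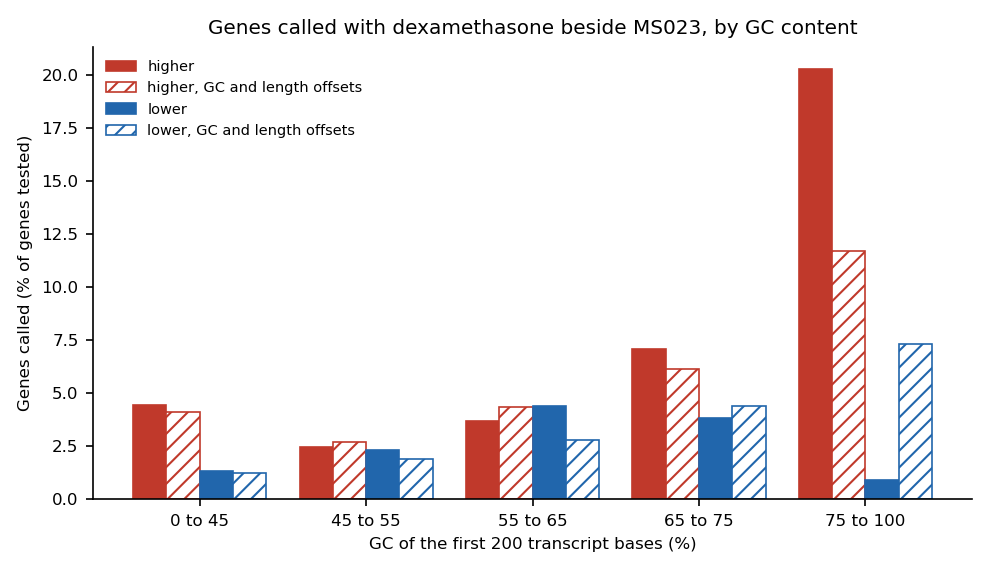
Share of tested genes called higher and lower with Dex beside MS023, in 5 classes of GC content over the first 200 transcript bases; filled bars are the fit as reported and hatched bars the fit with GC and length offsets. In the class over 75% the share called higher went from 20.3% to 11.7% with the offsets and the share called lower from 0.917% to 7.29%.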

How the data were processed

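PRO-seq libraries of A549 cells were deposited as 1 table of whole-number read counts per gene, which the authors made with featureCounts 2.0.1 (Subread) on hg38, per the submitters' processing notes. The strand setting, the counting feature and the handling of duplicates are not given in the sources used here, so genes that share exon positions with another gene are uncertain. The authors' own comparisons with untreated cells, made with DESeq2 per the submitters' processing notes, give a log2 fold change, its standard error, a p-value and an adjusted p per gene, per the file headers. The authors' deposited table for MS023 with Dex against the control calls 238 genes, 180 higher and 58 lower, and that for MS023 alone calls 3. Against the control, PER1 (log2 fold change 2.05) and TSC22D3 (1.82) are called with MS023 and Dex. PRMT9 (-0.20), SMAD7 (0.24) and PYGL (0.20) are not. The deposited tables hold no comparison of these groups with each other.

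All 58780 gene identifiers matched GENCODE release 29, which filled 22731 missing symbols and gave coordinates. Counts were tested with edgeR 4.0.16 in R 4.3.3 (TMM scaling, its expression filter, 1 coefficient for each of 7 groups, 7 residual degrees of freedom, common biological coefficient of variation 0.073). p-values were adjusted by Benjamini-Hochberg over the 21910 genes tested in each contrast, at 0.05. The code was tested on simulated data.

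Genes were named by rule: the 10 largest coding and 3 largest non-coding changes in each direction among called genes at 2 CPM or more whose groups did not overlap, up to 4 called genes with the smallest p per list, 9 set genes and, in the difference of Dex effects, the 3 highest and 3 lowest. ANGPTL4, MT2A, CIDEC, GLUL, RGS2, CDKN1C, SCNN1A, AJUBA, TGFBI, KLF15 and the other genes outside the rule were chosen after their values were seen. Of the genes that the list rule names, 1 is not reported here. The members and lists were chosen with earlier results of these data known. Alternatives were DESeq2 1.42.0, other scalings, other count filters, a fit of only the groups compared, a replicate block, GC and length offsets, equal depth and leaving out each library. Promoter and microRNA sequences are from RefSeq (GRCh38.p14).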

Additional observations from a re-analysis of the deposited data

Results flagged for a closer look

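The effect of Dex beside MS023 differed from its effect beside GSK591 by a test of the difference itself (an interaction contrast in edgeR) at 252 genes. Differences below are log2 values, MS023 minus GSK591, and positive ones mean a higher value beside MS023. Of the copies of MIR6724, number 1 differed by 3.34, number 2 by 2.90, number 4 by 2.91 and number 3 by 2.51.

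Among coding genes with large rises beside MS023 the differences were 2.42 for FGF18, 2.04 for UBTD2, 1.95 for STOX1, 1.91 for AVEN, 1.73 for PELI2, 1.68 for TMEM117, 1.48 for RMI2 and 1.34 for CITED4. FGF18 stood at 6.01 and 2.74 CPM with GSK591 alone, against 0.757 and 1.35 CPM with MS023 alone.

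The transcription factor genes CEBPA (1.19), CEBPB (0.996), CEBPD (0.95), KLF2 (0.962), JUND (0.918) and NR1D2 (1.19) also differed. SMURF2 (0.992) and SMAD7 (0.917) of the TGF-beta list, COPRS (1.22), BTG1 (0.705) and IRS2 (0.634) did so too. JUND and KLF2 rose beside MS023, by 0.79 and 0.94, and had changes of -0.13 and -0.02 beside GSK591 that were not called. The references differed as well. JUND stood at 86.55 and 73.56 CPM with GSK591 alone, against 41.2 and 59.9 CPM with MS023 alone. KLF2 stood at 56.8 and 50.1 CPM, against 34.8 and 40.1 CPM.

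Lower values beside MS023 were found for TXNDC16 (-2.40), a gene near 3 CPM, for the non-coding LOC107987091 (-2.03) and AL121949.2 (-1.68), and for SPATA7 (-1.31). TXNDC16 stood at 0.353 and 2.15 CPM in the GSK591 libraries, a wide spread at so low a level.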

How the results depend on the processing

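For Dex added to MS023, 1966 genes were called; DESeq2 called 1096 and leaving out 1 library gave 641 to 1572. Dex added to GSK591 had 413 with DESeq2, 1472 with library size alone, 385 with only the groups compared and 339 to 1007 with 1 library left out. The difference between these effects had 78 with DESeq2, 69 with library size alone, 478 with the library size of non-mitochondrial counts, 135 with only the groups compared, 145 with GC and length offsets, 155 with those and the replicate block, and 8 to 490 with 1 library left out. MS023 against untreated cells had 196 with non-mitochondrial library size, 101 with no filter, 176 with only the groups compared, and 2 to 22 with 1 library left out. The causes were not tested.

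Among the 99 named genes, the sign turned for 2 that were not called. NR3C1 was at -0.0272 with library size alone. PRMT1 was at 0.0529 with non-mitochondrial library size, at 0.032 with GC and length offsets, with or without the replicate block, and at -0.0597 to 0.033 with 1 library left out, above 0 without replicate 2 of MS023 and without replicate 1 of MS023 with Dex. DESeq2 kept the call status of 83 named genes, library size alone that of 79, and leaving out 1 library that of 69 to 81. The medians of the AP-1, EGF receptor, TGF-beta, glycogen, cytokine, pause control, clock, immediate early, receptor and histone lists were below 0 with library size alone.

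Deviations of same-numbered libraries had correlations of -0.07 to 0.10 over 21 pairs of groups, across all genes tested. Counting error at genes with few counts weakens such correlations, and the labels do not say what the number marks. These values therefore cannot tell whether same-numbered libraries shared a batch. With the replicate block 2034 genes were called. Limits are 2 libraries per group, counts over annotated genes only, unknown strand handling and no spike-in.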

Other observations

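The length of a coding gene went with the direction of its change. Of 1530 coding genes that span over 150 kb, 11.1% rose with Dex beside MS023 and 0.784% fell, while of 2976 genes that span 5 to 15 kb, 4.91% rose and 7.76% fell. With GC and length offsets these shares were 7.78% and 1.5%, and 4.4% and 7.26%. The length in those offsets is exon length, and span itself was not adjusted for. Genes that rose had a median span of 34.0 kb and those that fell 8.12 kb, against 16.9 kb for all genes tested.

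Other transcripts of the ribosomal DNA repeats on chromosome 21 moved both ways. All 4 tested copies of the RNA listed as RF01518 rose, by 0.48 to 0.61 on the log2 scale (edgeR adjusted p 0.0287 to 0.00258). The non-coding FP671120.1 stood at 3422 and 3890 CPM with MS023 and at 1994 and 1652 CPM with Dex, a fall of 1.00 on the log2 scale (edgeR adjusted p 1.68e-05), and it also fell by 0.86 beside GSK591. FP236383.2 stood at 25800 and 22548 CPM with MS023, 17387 and 11238 CPM with Dex and 9686 and 8362 CPM in untreated cells. It fell by 0.76 with Dex (adjusted p 0.0189), after MS023 alone had been called higher than untreated by 1.42 (adjusted p 0.000208). The 5.8S copy RNA5-8SN2 was not called with Dex (-0.40, adjusted p 0.157). Reads of these repeats may be shared between copies, and these genes were chosen after their values were seen.

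YAP1, the transcriptional effector of the Hippo pathway in which AJUBA acts, was also chosen after its values were seen. It stood at 12.4 and 16.2 CPM with MS023 and at 40.4 and 45.3 CPM with Dex (1.60 ± 0.14 SE, edgeR adjusted p 3.15e-11). Beside GSK591 it rose by 0.66, and the difference of 0.94 was called (adjusted p 0.00804).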
